A study of Mus musculus with 8 samples.

Results

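A set of 5 mouse liver tumors was divided by their transcript level of Afp, which encodes alpha-fetoprotein, and the other expressed genes were described across that division. The members were chosen by their measured Afp value. A tumor library was placed on the Afp-high side where Afp reached 100 CPM (counts scaled to a common library total) and on the Afp-low side otherwise, whatever its genotype. This placed 2 of the 5 tumors, wild-type tumors 1 and 2, on the Afp-high side, and 3 tumors, wild-type tumor 3 and Nfib knockout tumors 2 and 3, on the Afp-low side. The whole series has 8 libraries, the other 3 being wild-type normal livers 2 and 3 and knockout normal liver 3, which took no part in the division. All mice were C57BL/6, aged 14 to 16 days by an age that the labels state alike for tumors and normal livers. Knockout names nfib-/- mice with a floxed Nfib allele and Cre driven by the albumin promoter, that is a deletion in hepatocytes, and the other mice are called wild type with no further detail. The labels do not say how the tumors arose or whether libraries with the same number came from the same animal. Since both Afp-high tumors were wild type and 2 of the 3 Afp-low tumors were knockouts, the Afp division and the genotype cannot be told apart outside the wild-type tumors. The sides were drawn from a value measured in the same libraries, and therefore no difference between them was tested. Values are given per library and always in the order wild-type tumors 1 and 2 for the Afp-high side, wild-type tumor 3, knockout tumor 2 and knockout tumor 3 for the Afp-low side, and wild-type normal 2, wild-type normal 3 and knockout normal 3 for normal liver.

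Afp belongs to the albumin gene family and is the main serum protein made by fetal hepatocytes and yolk sac. It is silenced in mouse liver after birth, is switched on again in part of hepatocellular tumors, and is used in the clinic as a tumor marker. Adult hepatocytes instead run the urea cycle, gluconeogenesis, amino acid breakdown and drug metabolism, with periportal and pericentral hepatocytes of the lobule each carrying part of this work. Pericentral gene expression depends on Wnt and beta-catenin signaling.

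Library totals ran from 11912549 to 19965842 counts, so that 1 CPM stood for about 12 to 20 reads. Hepatocyte marker genes were abundant in all 8 libraries, and Alb alone took 8.05% to 14.1% of the counts of the tumors. Nfib was counted at 61.4 and 41.5 CPM in the Afp-high tumors, at 82.1, 88 and 78.3 CPM in the Afp-low tumors and at 104, 77.7 and 82 CPM in normal liver. It was therefore not lower in the knockout libraries, and both genotype names below are taken from the labels without a check. Which exons the allele loses is not given in the sources used here. Y-linked transcripts stood out in 2 libraries, with Ddx3y at 5.31 CPM in wild-type tumor 2 and 59.9 CPM in wild-type normal 2. In the other 6 libraries Ddx3y stayed under 0.12 CPM, and Kdm5d, another Y-linked gene, reached 0.175 CPM in knockout tumor 3 from 3 counts. Skeletal muscle transcripts stood out in knockout tumor 2, where Acta1 reached 880.0 CPM, and in knockout normal 3, where it reached 223 CPM. The squamous keratin Krt13 was at 213 CPM in knockout tumor 2. Fewer cells of a type and less RNA per cell cannot be told apart in such bulk libraries.

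The 250 bases before the annotated start of 2 genes are shown, as RefSeq gives them for GRCm38.p6. Afp defines the division, and Asns, asparagine synthetase, stands for the stress and amino acid synthesis genes described further on. The Afp window is chr5:90490464-90490713 on the plus strand, and the Asns window is chr6:7693210-7693459 on the minus strand. Both are written 5′ to 3′.
Afp: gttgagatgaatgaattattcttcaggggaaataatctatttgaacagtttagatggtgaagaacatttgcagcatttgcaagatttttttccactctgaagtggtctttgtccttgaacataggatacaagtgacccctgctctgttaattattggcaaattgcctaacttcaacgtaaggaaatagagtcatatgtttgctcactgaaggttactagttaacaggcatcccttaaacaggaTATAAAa
Asns: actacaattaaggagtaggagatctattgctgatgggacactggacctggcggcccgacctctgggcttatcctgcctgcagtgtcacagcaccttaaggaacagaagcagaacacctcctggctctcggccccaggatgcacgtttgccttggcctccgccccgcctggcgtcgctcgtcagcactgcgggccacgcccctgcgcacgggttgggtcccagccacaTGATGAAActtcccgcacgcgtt
The capitals in Afp mark the letters TATAAA of the TATA box, a core promoter element. They begin 7 bases before the start that RefSeq gives. Read on both strands, these letters occur in 4473 of 32851 mouse promoter windows (13.6%), counting 250 bases before to 50 bases after the start. The capitals in Asns mark the letters TGATGNAA of the composite site of ATF4 and C/EBP factors, which begin 23 bases before the start and occur in 1304 windows (3.97%). Of the 24 stress response genes with a RefSeq window, 7 held this match, among them 2 of the 8 that were higher in the Afp-high tumors (Asns and Trib3). GENCODE M21 starts Afp at 90490737, past the end of its window, and Asns at 7693254, inside its window. The distances of 7 and 23 bases therefore hold for the RefSeq starts only. A match describes letters in a window and not binding.

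Afp was at 543 and 2112 CPM in the Afp-high tumors, from 9557 and 42162 counts, and at 4.64, 16.6 and 16.5 CPM in the Afp-low tumors, from 73, 289 and 284 counts. Normal liver gave 14.9, 1.09 and 16.8 CPM. The 3 Afp-low tumors thus lay within the range of normal liver. The tumor just inside the threshold of 100 CPM was at 543 CPM, and the tumor just outside it was at 16.6 CPM. The mean of log2(CPM + 1) over the Afp-high tumors exceeded the Afp-low mean by 6.48, a value that the division itself produced. This difference of means on the log2(CPM + 1) scale is the log2 difference used throughout, and it understates the difference of genes with few counts.

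The other members of the albumin family lie beside Afp on chromosome 5. Alb was at 116648 and 140883 CPM in the Afp-high tumors and 95647, 91383 and 80544 CPM in the Afp-low tumors. Afm, which encodes afamin, was at 450.4 and 513 CPM against 341, 349.6 and 285 CPM, and Gc, the vitamin D binding protein, at 7121 and 8244 CPM against 6687, 6786 and 6620.0 CPM. All 3 were above the whole Afp-low side in both Afp-high tumors, by log2 differences of 0.53, 0.57 and 0.19, all under 1. Such a position was common, since 2133 of the 13021 expressed genes defined below lay above the whole Afp-low side at any size. The Afp difference came from the division itself and is therefore no measure for these neighbours.

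Of the 21878 genes counted, 13021 were expressed, meaning at 1 CPM or more in at least 2 of the 5 tumors. A gene is called higher or lower below where its log2 difference was at least 1 in size and the values of the sides did not overlap. By this rule 537 genes (4.12% of those expressed), Afp itself included, were higher and 678 (5.21%) were lower in the Afp-high tumors. These shares are the background for every count of list members. Without the limit on size, 2133 expressed genes lay above and 3589 below the whole Afp-low side in both Afp-high tumors. These are the background where a gene is said to lie beyond that side without being called. The median log2 difference over all expressed genes was -0.12, and scaling by TMM factors instead of library totals moved that median up by 0.13 and gave 663 higher and 524 lower genes. With that negative median, most expressed genes had a negative log2 difference under library totals, which is the background for counts of signs. The gap between the sides was wider than the range within either side for 222 of the higher genes and 60 of the lower genes. Both counts depended on the Afp-high tumors. Leaving out wild-type tumor 1 gave 937 higher and 1901 lower genes, and leaving out wild-type tumor 2 gave 431 and 173, of which 304 and 142 were among those of all 5 tumors. Without knockout tumor 3 there were 574 and 1113.

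Wild-type tumor 2 was the more distant of the 2 Afp-high tumors. Among the 537 higher genes its median log2 difference from the mean of the Afp-low tumors was 1.78, against 1.14 for wild-type tumor 1, and 428 genes were farther from the low side in tumor 2. Among the 678 lower genes the medians were -2.01 and -0.78, and 659 genes were farther in tumor 2. The Afp-high tumors differed 2-fold or more from each other at 446 of the lower genes, each time with tumor 2 the lower. Among the higher genes such a difference was found at 186 with tumor 2 the higher and at 30 with tumor 1 the higher. Of the 127 genes of the naming rule that were called, 125 had a value without wild-type tumor 1 and all 125 kept their call. Leaving out a library cannot make the sides overlap, so a call could be lost only through the limit on size. Since wild-type tumor 1 was the nearer at most called genes, these kept calls do not measure stability. Without wild-type tumor 2, 125 had a value and 88 kept their call.

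**Figure D1:**
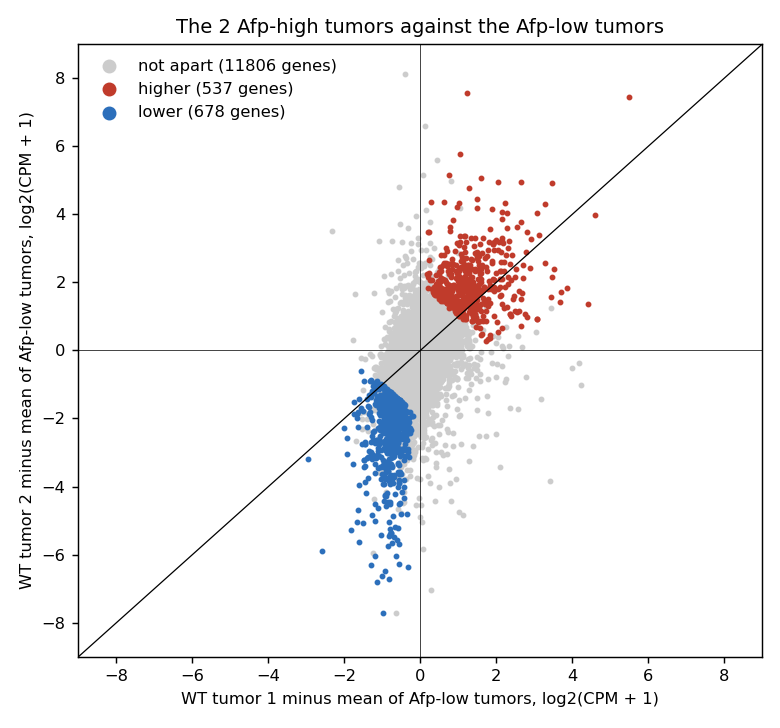
Each point is 1 of 13021 expressed genes; the axes give its log2(CPM + 1) in wild-type tumor 1 (horizontal) and wild-type tumor 2 (vertical) minus the mean of the 3 Afp-low tumors, with the 537 higher genes in red, the 678 lower genes in blue, all others in grey, and the line of equal differences in black. Most colored points lie farther from 0 on the vertical axis, the side of wild-type tumor 2.

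The Afp-high side was therefore not a uniform pair. The Afp-high tumors differed from each other 2-fold or more at 1869 expressed genes, while wild-type tumor 1 differed from the Afp-low tumors at 1106, 1113 and 894 genes. Wild-type tumor 2 differed from the same 3 tumors at 3321, 3073 and 2790 genes. Within the Afp-low side the pairs differed at 460, 681 and 943 genes. The tumors and normal livers of equal number differed at 202 genes for wild-type tumor and normal 3, at 173 for knockout tumor and normal 3, and at 3516 for wild-type tumor and normal 2. These pairs are single libraries, with no replicate check, and all pair counts rest on library totals with no other scaling tried.

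**Figure D2:**
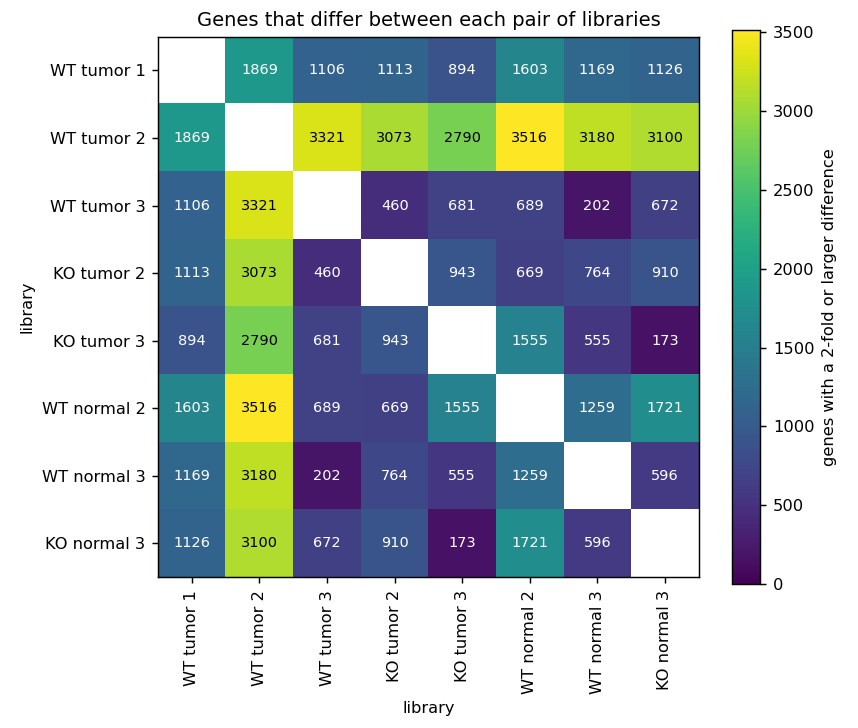
The grid gives the number of expressed genes with a 2-fold or larger difference in log2(CPM + 1) for each pair of the 8 libraries, with rows and columns in the same order and the color scale in genes. Wild-type tumor 2 is at 1869 genes or more from every other library, and the 3 Afp-low tumors are at 943 or fewer from each other.

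Genes of fetal liver and of hepatocellular tumors were among the most separate between the sides. Of 19 expressed genes on a list of oncofetal liver genes, 9 were higher and none lower, with a median log2 difference of 1.60 beside -0.12 for all expressed genes. Golm1, a Golgi membrane protein that is also a serum marker of liver cancer in humans, was at 60.04 and 103 CPM against 12.5, 14.8 and 11.6 CPM. Scd2, the stearoyl-CoA desaturase that mouse liver uses before weaning, was at 289 and 632 CPM against 21.2, 56.8 and 76 CPM. Both genes were several-fold higher in each Afp-high tumor than in any Afp-low tumor. Igdcc4, a surface protein of fetal hepatocytes also known as Nope, was at 46.4 and 74.7 CPM against 2.42, 7.4 and 9.95 CPM. Spink1, a secreted trypsin inhibitor, was at 8.46 and 31 CPM against 0.318, 1.2 and 1.57 CPM. The remaining members called higher were Igf2bp3, Ahsg, Tspan8, Fabp5 and Ly6d. Normal liver lay under both Afp-high tumors for Golm1 (20.1, 7.56 and 10.8 CPM) and Scd2 (74.7, 12 and 34.4 CPM). The count became 8 of 18 and the median 0.92 when wild-type tumor 1 was left out, and 10 of 18 and 1.31 when wild-type tumor 2 was left out, with Ahsg no longer called (0.69).

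Several well known oncofetal genes did not follow the division and were high in a single Afp-high tumor. Igf2, the fetal growth factor, reached 5185 CPM in wild-type tumor 2 and 13.1 CPM in wild-type tumor 1, with 3.94, 6.08 and 181 CPM in the Afp-low tumors and 11.7, 4.07 and 39.4 CPM in normal liver. Knockout tumor 3 was thus above wild-type tumor 1. Gpc3, a membrane proteoglycan used as a marker of hepatocellular carcinoma, had the opposite pattern, with 417 and 10.1 CPM in the Afp-high tumors and 7.95, 25.6 and 46.8 CPM in the Afp-low tumors. Dlk1, a fetal hepatoblast surface protein, was at 20 and 2.7 CPM against 0.6997, 1.2 and 3.43 CPM. Igf2bp3, an RNA-binding protein of fetal tissues, was higher on the Afp-high side, at 1.25 and 21.5 CPM against 0.0636, 0 and 0.291 CPM, with wild-type tumor 2 far above wild-type tumor 1. Igf2, Gpc3 and Dlk1 overlapped between the sides. Igf2 met the rule without wild-type tumor 1 (log2 difference 8.13) or knockout tumor 3 (5.51), Gpc3 without wild-type tumor 2 (4.22), and Dlk1 without wild-type tumor 2 (3.04) or knockout tumor 3 (2.19). Of the list, Igf2bp1, Lin28b and Hmga2 were below the expression limit.

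The enzymes that make serine from glycolysis and asparagine from aspartate were among the genes with the widest gaps between the sides. Phgdh, the first enzyme of serine synthesis (chromosome 3, 98313170 to 98339990, minus strand, GRCm38), was at 31.5 and 38.7 CPM against 1.72, 4.3 and 2.68 CPM, with 2.85, 1.72 and 1.66 CPM in normal liver. Psat1, the second (chromosome 19, 15904678 to 15947337, minus strand), was at 56.8 and 158 CPM against 2.29, 4.47 and 7.16 CPM, with 3.95, 1.83 and 2.48 CPM in normal liver. Psph, the third, was at 18.3 and 26.6 CPM against 4.2, 4.93 and 7.68 CPM. All 3 steps of the pathway were thus higher in both Afp-high tumors, with log2 differences of 3.26, 4.19 and 1.84. Asns (chromosome 6, 7675169 to 7693254, minus strand), whose promoter is printed above, was at 31.6 and 62 CPM against 1.53, 2.7 and 5.18 CPM. Aldh1l2, a mitochondrial enzyme of folate metabolism, was at 13.4 and 17.4 CPM against 0.827, 1.38 and 0.582 CPM. Mthfd2, a mitochondrial folate enzyme more active in embryonic than in adult tissue, was at 5.62 and 7.56 CPM against 1.27, 2.24 and 2.15 CPM. For Phgdh, Psat1, Asns and Aldh1l2 the lowest Afp-high tumor stood above the highest Afp-low tumor by 2.62, 2.82, 2.40 and 2.60 on the log2(CPM + 1) scale.

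**Figure D3:**
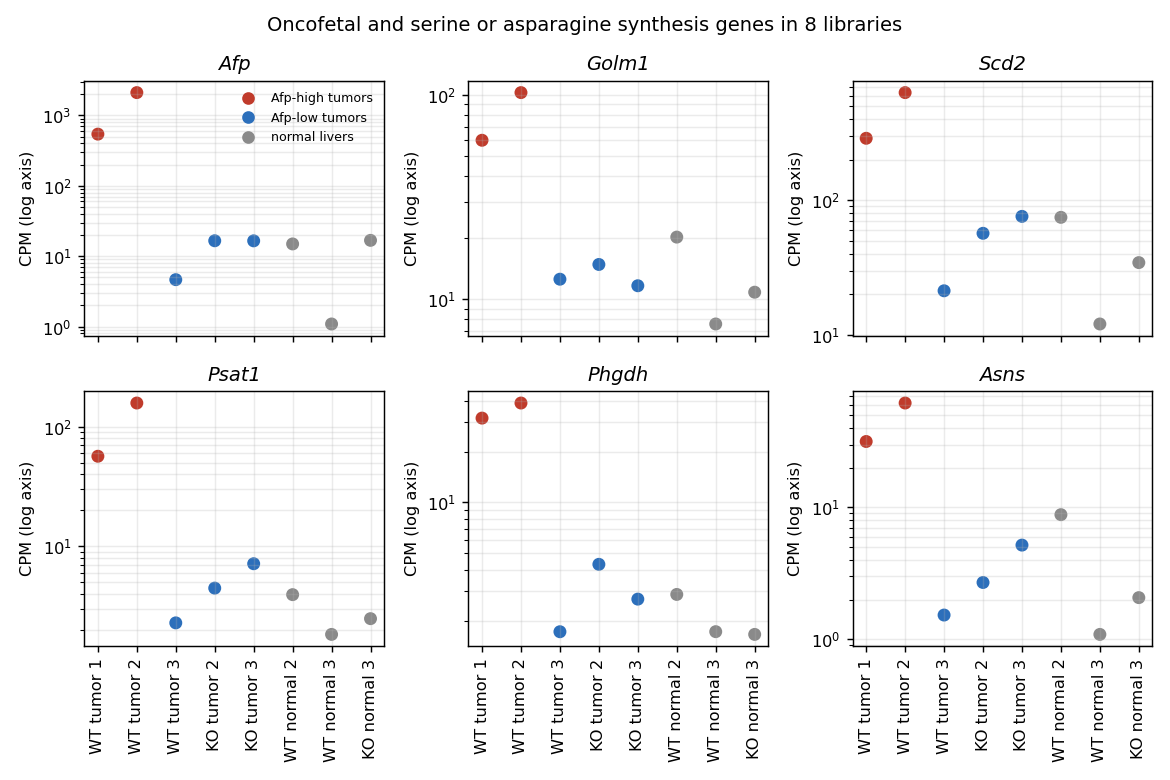
Each panel gives the CPM of 1 gene (log axis, own scale) in the 8 libraries, with Afp-high tumors in red, Afp-low tumors in blue and normal livers in grey; WT stands for wild type and KO for Nfib knockout. In all 6 panels both red points lie above every blue and grey point, an order that the division itself fixed for Afp against the blue points.

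These enzymes belong to the genes induced by ATF4, the transcription factor of the integrated stress response. On the list of 25 expressed genes of the integrated stress and unfolded protein responses, 8 were higher and none lower, and 23 had a positive log2 difference, with a median of 0.90. Trib3, a pseudokinase induced by ATF4, was at 80.7 and 309.7 CPM against 15.5, 19.4 and 17.8 CPM. Hspa5, the main chaperone of the endoplasmic reticulum, was at 1263 and 3836 CPM against 706, 837 and 751 CPM, and Sdf2l1, another protein of that compartment, at 58.2 and 64.7 CPM against 25.3, 22.3 and 30.5 CPM. The regulators themselves were not called. Atf4 was at 160.5 and 348 CPM against 136, 137 and 105 CPM, above the low side in both Afp-high tumors but under the log2 limit of 1. Ddit3, which encodes the stress factor CHOP, was at 293 CPM in wild-type tumor 2 and 16.5 CPM in wild-type tumor 1, the latter within the Afp-low range of 23.9, 17.1 and 14.1 CPM. When wild-type tumor 1 was left out the list had 12 higher members, 1 lower member and a median of 0.82, and when wild-type tumor 2 was left out it had 10, 0 and 0.68. Atf4 and Ddit3 met the rule without wild-type tumor 1 (log2 differences 1.47 and 3.95), and Hspa5 no longer did without wild-type tumor 2 (0.73).

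Epithelial genes of bile ducts and liver progenitors were higher as a group but not in full. Of 25 expressed members, 13 were higher, 1 was lower and the median log2 difference was 1.06. Anxa2, a membrane-binding protein scarce in adult hepatocytes, was at 162 and 261 CPM against 43.7, 50.5 and 36.6 CPM. Vil1, the actin bundler of microvilli, was at 38.1 and 8.61 CPM against 1.78, 1.43 and 1.86 CPM. Prom1, a surface marker of progenitor cells, was at 81.9 and 47.7 CPM against 16, 14.6 and 23.9 CPM. The simple epithelial keratins Krt8 and Krt18, which hepatocytes share with duct cells, were higher as well. Krt8 was at 544 and 627 CPM against 184, 269.6 and 245 CPM, and Krt18 at 548 and 698 CPM against 193, 242 and 179 CPM. Krt7, a keratin of duct cells that hepatocytes lack, was the lower member, at 2.1 and 0.651 CPM against 5.92, 2.64 and 2.74 CPM. Lcn2, lipocalin 2, was higher at 659 and 598 CPM against 47.3, 82 and 375 CPM, with knockout tumor 3 and knockout normal 3 (378 CPM) well above the other livers of low Afp. Outside the list, Cdh17, a cadherin of intestine and of liver tumors, had a gap as wide as that of Psat1, at 51.8 and 33.7 CPM against 0.572, 3.9 and 0.349 CPM. The list had 14 higher and 5 lower members and a median of 1.17 in the absence of wild-type tumor 1, and 8, 0 and 0.72 in the absence of wild-type tumor 2. Relative to the mean of the normal livers, the mean over the list was 0.85 and 0.71 in the Afp-high tumors on the log2(CPM + 1) scale, from -0.12 to 0.15 in the Afp-low tumors, and 0.79, -0.56 and -0.23 in the normal livers themselves. Wild-type normal 2 was thus about as high as the Afp-high tumors. Krt7 was no longer called without wild-type tumor 2 (-0.55) or wild-type tumor 3 (-0.70).

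Mitotic genes had low counts and small but regular differences. All 25 genes of a list for G2 and mitosis had a positive log2 difference, as they did under TMM and DESeq2 scaling, 10 were higher by the rule, and the median was 0.80. Ccnb2, cyclin B2, was at 8.07 and 9.57 CPM against 1.91, 1.89 and 2.44 CPM, Kif20a, a kinesin of cell division, at 5.85 and 11.6 CPM against 2.04, 2.35 and 2.79 CPM, and Tpx2, a spindle assembly factor, at 5.74 and 9.52 CPM against 1.65, 2.12 and 2.79 CPM. In each of these genes both Afp-high tumors were above all Afp-low tumors and all normal livers. Genes of DNA replication were less separate, with 2 higher of 22 expressed and a median of 0.31. With wild-type tumor 1 left out the mitotic list had 11 higher of 23 and a median of 0.91, and with wild-type tumor 2 left out it had 5 of 23 and 0.78. The replication list had 6 higher of 21 and 1 of 21 in the same settings, with medians of 0.60 and 0.11.

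Some targets of p53 and some feedback genes of the MAPK pathway were higher in the same tumors, and most members of both lists were not called. Outside these lists, Cdkn2b, which encodes the cyclin-dependent kinase inhibitor p15, was at 18.6 and 16 CPM against 1.4, 3.1 and 1.75 CPM. Among 19 expressed targets of p53, 5 were higher and none lower, with a median of 0.63. They included the death receptors Tnfrsf10b, at 8.63 and 8.82 CPM against 1.02, 2.41 and 2.15 CPM, and Eda2r, at 11.1 and 10.4 CPM against 1.84, 3.5 and 3.55 CPM, and the antiproliferative gene Btg2, at 148 and 161 CPM against 54.9, 79.95 and 84 CPM. Trp53 itself was at 32.2 and 45.4 CPM against 28.5, 30.00 and 22.5 CPM, a log2 difference of 0.50. Of 17 expressed feedback genes of the MAPK pathway 4 were higher and none lower, with a median of 0.43. Of the phosphatases among them, Dusp4 was at 15.2 and 16.5 CPM against 2.86, 4.65 and 2.44 CPM and Dusp5 at 12.1 and 14.6 CPM against 3.24, 4.01 and 1.51 CPM. The growth regulator Myc was at 12.6 and 31.4 CPM against 7.76, 10.5 and 10.4 CPM. Without wild-type tumors 1 and 2 in turn the p53 list had 7 higher and 2 lower members, then 6 and 0, with medians of 0.81 and 0.38. Without knockout tumor 3 it had 8 and 0, and without wild-type tumor 3 Btg2 was no longer called (0.90). The MAPK list had 4 higher and 3 lower, then 6 and 0, with medians of 0.13 and 0.67. Myc was no longer called without wild-type tumor 2 (0.38) or wild-type tumor 3 (0.87).

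Within the growth hormone and insulin-like growth factor axis 2 binding proteins were higher, while Igf1 and the growth hormone receptor were lower. Igfbp1, a secreted binding protein that stress and fasting induce in liver, was at 2249 and 1379 CPM against 118, 249.8 and 408 CPM, and Igfbp3, the main carrier of circulating IGF, at 137 and 148 CPM against 30.8, 35.9 and 21.5 CPM. Igf1, the liver hormone driven by growth hormone, was at 465 and 50.4 CPM against 913, 755 and 657 CPM, and its upstream receptor Ghr at 209.8 and 146 CPM against 388, 466 and 377 CPM. Both binding proteins were above, and Igf1 and Ghr below, every Afp-low tumor and every normal liver in both Afp-high tumors. On the list of 15 expressed genes 3 were higher and 3 lower. The third higher member was the RNA-binding protein Igf2bp3. The binding proteins Igfbp2 and Igfbp4, also on the list, were not called higher. The counts became 2 and 4 of 14 when wild-type tumor 1 was left out. They became 3 and 0 of 14 when wild-type tumor 2 was left out, with Igf1 at -0.72 and Ghr at -0.96.

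The 15 higher genes with the widest gap were taken among those with a mean of at least 5 CPM in the tumors. They included Afp itself and further genes outside these lists. Slc24a3, a sodium, potassium and calcium exchanger, was at 20.7 and 43.5 CPM against 1.14, 2.01 and 0.757 CPM. Tnfrsf12a, the receptor of the cytokine TWEAK known as Fn14, was at 71.5 and 93.9 CPM against 10.8, 12 and 15.4 CPM. Galnt6, an enzyme that starts O-linked glycosylation, was at 37 and 93.1 CPM against 5.47, 7.69 and 7.57 CPM. Smox, spermine oxidase of polyamine metabolism, was at 37.7 and 55 CPM against 6.49, 7.4 and 7.45 CPM. Nid1, a basement membrane protein, was at 282 and 224 CPM against 42.4, 52.8 and 55.2 CPM. The Afp-high tumors were within 3-fold of each other for these 5 genes, and wild-type tumor 1 was the higher for Nid1.

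Metabolic genes of the adult hepatocyte were among the lower genes. Of 8 expressed genes of the urea cycle and its transport, 7 were lower and none higher, with a median log2 difference of -1.53. Ass1, argininosuccinate synthase (chromosome 2, 31470207 to 31520672, plus strand), was at 1157 and 305 CPM against 2526, 3577 and 3584 CPM, with 2877, 2259.5 and 4031 CPM in normal liver. Arg1, arginase, was at 891 and 159 CPM against 1559, 1745 and 1916 CPM, and Otc, ornithine transcarbamylase, at 254 and 172 CPM against 549.9, 569 and 482 CPM. Cps1, which makes carbamoyl phosphate, was nearly equal in the Afp-high tumors, at 1642 and 1650.4 CPM against 2635, 3909 and 5408 CPM. Nags, which makes the activator of Cps1, was the member not called, at 42.3 and 44.5 CPM against 55, 57.7 and 62.3 CPM. Averaged over the list, wild-type tumors 1 and 2 were 0.97 and 2.10 below the mean normal liver on the log2(CPM + 1) scale. The count was 7 of 8 and the median -1.99 with wild-type tumor 1 left out, and 5 of 8 and -1.07 with wild-type tumor 2 left out, with Arg1 at -0.96. Cps1 was no longer called without knockout tumor 3 (-0.96).

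Amino acid breakdown and gluconeogenesis followed with the same order of tumors. All 37 expressed genes of amino acid breakdown had a negative log2 difference (36 under TMM or DESeq2 scaling), and 21 were lower by the rule, with a median of -1.29. Hal, histidine ammonia lyase, was at 136 and 39.9 CPM against 292, 491 and 388 CPM, and Gnmt, which disposes of methyl groups by way of glycine, at 406 and 58.9 CPM against 782, 1228 and 1359.5 CPM. Gls2, the liver glutaminase, was at 189.7 and 136 CPM against 385, 551 and 525 CPM. All 14 expressed genes of gluconeogenesis and glycogen were negative too, as under TMM and DESeq2 scaling, 6 were lower (4 under either scaling), and the median was -1.29. G6pc, glucose-6-phosphatase and the last step of glucose release (chromosome 11, 101367561 to 101377903, plus strand), had the widest gap among them, at 126 and 23.9 CPM against 375, 367 and 422 CPM, with 698, 383 and 445 CPM in normal liver. Pck1, the entry enzyme of gluconeogenesis, was at 3937 and 113 CPM against 6991, 5019 and 5683 CPM, so that wild-type tumor 1 was nearer to the Afp-low tumors than to wild-type tumor 2. When wild-type tumor 2 was left out, 8 of 37 and 1 of 14 were lower, with medians of -0.74 and -0.37, and Pck1 was no longer called (-0.57). When wild-type tumor 1 was left out, there were 27 of 37 and 12 of 14, with medians of -1.81 and -2.27.

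**Figure D4:**
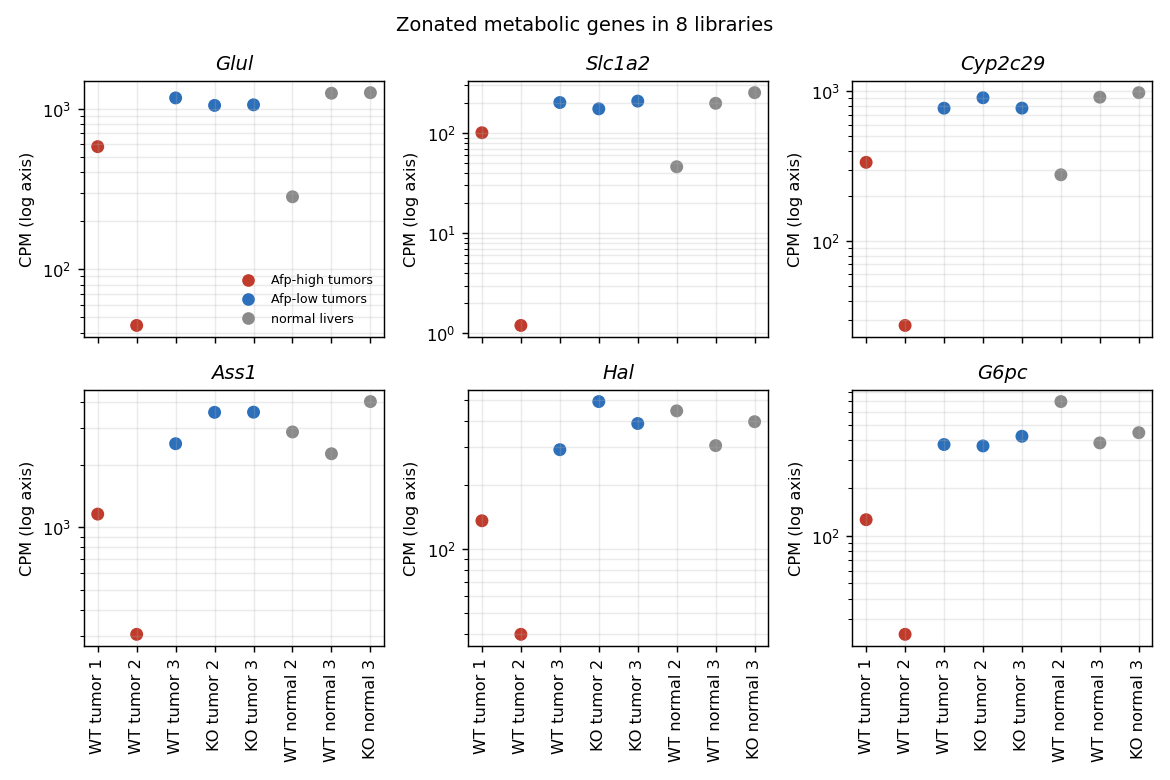
Each panel gives the CPM of 1 gene (log axis, own scale) in the 8 libraries, with Afp-high tumors in red, Afp-low tumors in blue and normal livers in grey; WT stands for wild type and KO for Nfib knockout. Both red points lie below every blue point in all 6 panels, with wild-type tumor 2 the lowest, and wild-type normal 2 is below the blue points for Glul, Slc1a2 and Cyp2c29.

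Periportal and pericentral genes were both lower, but the pericentral genes separated the Afp-high tumors from each other. Of 19 expressed periportal genes, 12 were lower and 1 was higher, with a median of -1.58. The higher member was Cdh1, E-cadherin, at 177 and 93.3 CPM against 50.1, 47.6 and 39.6 CPM. Of 20 expressed pericentral genes, 9 were lower and 1 was higher, with a median of -2.02. Averaged over the pericentral list, wild-type tumor 1 was 0.30 above and wild-type tumor 2 was 3.15 below the mean normal liver. Glul, glutamine synthetase of the hepatocytes around the central vein, was at 579.5 and 44.6 CPM against 1166, 1047 and 1056 CPM, and Slc1a2, a glutamate transporter of the same cells, at 101 and 1.2 CPM against 202, 174 and 208 CPM. Cyp2e1, an ethanol-oxidizing cytochrome, was at 4112 and 61.8 CPM against 5050.2, 5345 and 5088 CPM. Wild-type tumor 2 was thus far below all other tumors, while wild-type tumor 1 lay between it and the Afp-low side. Slc1a4, a transporter of serine and alanine, was the higher member, at 35.7 and 41.9 CPM against 6.23, 9.69 and 7.16 CPM. With wild-type tumor 2 left out the pericentral list had 0 lower and 3 higher members and a median of -0.36, with Glul at -0.91, Slc1a2 at -0.94 and Cyp2e1 at -0.33. With wild-type tumor 1 left out it had 19 lower and 1 higher member and a median of -3.57. The periportal list had 6 lower and 14 lower in the same settings, with medians of -0.81 and -2.20.

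A further 4 beta-catenin targets, chosen after their values were seen, overlapped between the sides, while Glul, Slc1a2 and Cyp2e1 above did not. Lgr5, a receptor for R-spondins, was at 21.2 CPM in wild-type tumor 1 and 0.351 CPM in wild-type tumor 2, on either side of the Afp-low tumors at 6.42, 9.52 and 4.71 CPM. Rnf43, a ubiquitin ligase that limits Wnt signaling, was at 46.3 and 2.35 CPM against 21.3, 22.5 and 20.5 CPM. Lect2, a secreted protein, was at 245 and 8.31 CPM against 118, 163 and 109 CPM, and Axin2, a feedback inhibitor, at 12.6 and 0.601 CPM against 9.86, 9.23 and 9.25 CPM. In all 4 genes wild-type tumor 1 was the highest and wild-type tumor 2 the lowest of the 5 tumors. They do not stand for the whole pericentral list in wild-type tumor 1. With wild-type tumor 2 left out, 7 of its 20 expressed members had a positive log2 difference and 13 a negative one. Without wild-type tumor 1 they would be called lower, at -2.50 for Lgr5, -2.74 for Rnf43, -3.79 for Lect2 and -2.71 for Axin2. Without wild-type tumor 2 Lgr5 and Rnf43 would be called higher, at 1.54 and 1.08. Ctnnb1, the gene of beta-catenin, was at 327 and 335 CPM against 276, 283 and 256 CPM.

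Some genes of drug metabolism and of bile acid handling were lower. Of 33 expressed cytochrome P450 and conjugation genes 14 were lower and none higher, with a median of -1.16. Cyp2c29 was at 336 and 27.4 CPM against 772, 906 and 773 CPM and Ces1d, a carboxylesterase, at 279 and 43.6 CPM against 506, 527 and 539 CPM. Genes of the Cyp2c and Ces clusters have near-identical copies among which reads may be split, so their single values are uncertain. Of 21 expressed bile acid genes 9 were lower and 1 higher, with a median of -0.91. Baat, which conjugates bile acids, was at 92 and 59.9 CPM against 192, 209 and 171 CPM, and the uptake transporter Slc10a1 at 371 and 14.3 CPM against 588, 768 and 639.6 CPM. The higher member was Abcc4, an exporter toward the blood that cholestasis induces, at 39.7 and 158 CPM against 10.2, 17 and 20.3 CPM. The nuclear receptors Nr1i3 (CAR), a regulator of P450 genes, and Nr1h4 (FXR), the bile acid receptor, were lower. Nr1i3 was at 112 and 10.2 CPM against 295, 198 and 169 CPM, and Nr1h4 at 90.8 and 47.5 CPM against 175, 145 and 125 CPM. Leaving out wild-type tumor 2 left the P450 and bile acid lists with 5 and 3 lower members and medians of -0.54 and -0.60, and Ces1d (-0.91), Slc10a1 (-0.83), Nr1i3 (-0.93) and Nr1h4 (-0.69) were no longer called. Leaving out wild-type tumor 1 gave 19 and 12, with medians of -1.999 and -1.65.

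Genes known to differ between male and female mouse liver were called in both directions. Of 25 expressed female-biased genes 7 were lower and 2 higher, with a median of -1.74. Sult2a1, a sulfotransferase of steroids and bile acids, was at 17.5 and 0.851 CPM against 244, 65.4 and 81.7 CPM, and at 0.588, 266 and 58.3 CPM in normal liver. Its copies Sult2a2 and Sult2a6 were lower too, with reads that may be shared among them. Averaged over the list, wild-type tumor 2 was at -1.41 and wild-type normal 2 at -2.86 relative to the mean normal liver (log2(CPM + 1) scale). The other libraries were at 1.01 to 1.75. The 2 higher members were Prom1 and Cyp2a4. Cyp2a4 was at 7071 CPM in wild-type tumor 2 and 236 CPM in wild-type normal 2, the highest and lowest of the 8 libraries. Wild-type normal 2, the library with the most Ddx3y, was at 0.588 CPM for Sult2a1 and 0.504 CPM for Sult2a2. Wild-type tumor 2, with some Ddx3y, was at 0.801 CPM for Sult2a2, and wild-type tumor 1, with none counted, at 18.5 CPM against 178, 46.5 and 38.3 CPM in the Afp-low tumors. The part of sex in these differences was not tested. The list had 3 lower members and a median of -0.20 with wild-type tumor 2 left out, and 17 and -3.08 with wild-type tumor 1 left out. Without knockout tumor 2 there were 12. Of 19 expressed male-biased genes 3 were higher and none lower, with a median of -0.10 (0.038 under TMM and 0.030 under DESeq2 scaling). Cyp2d9, a cytochrome P450, was at 153 and 233 CPM against 24.5, 52.7 and 69.8 CPM, and at 1131, 27 and 41.1 CPM in normal liver. Serpina1e, a protease inhibitor of the alpha-1-antitrypsin family, was at 2504 and 5516 CPM against 349, 297 and 1726 CPM, and at 7393, 199.6 and 669.9 CPM in normal liver, and both genes have near-identical copies among which reads may be split. Cyp2u1, the other higher member, was at 3.24 and 16.8 CPM against 0.572, 1.84 and 1.05 CPM. All 3 were highest in wild-type tumor 2 among the tumors, and Cyp2d9 and Serpina1e were highest in wild-type normal 2 among all libraries. Averaged over the male-biased list, wild-type tumor 2 was at -1.37 relative to the mean normal liver and the other tumors at -1.34 to -0.80. Wild-type normal 2 was at 3.04. The list had 5 higher and 5 lower of 18 members without wild-type tumor 1, 4 and 0 of 19 without wild-type tumor 2, and 5 and 1 without knockout tumor 3, with medians of -0.33, 0.47 and -0.080.

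The lower genes of the widest gap also held a gene of lung. Sftpc, which encodes surfactant protein C of alveolar cells, was at 0.227 and 0.0501 CPM against 5.47, 11.1 and 9.95 CPM, and at 0.923, 9.34 and 13.2 CPM in normal liver. The wild-type libraries with the number 2 and wild-type tumor 1 were thus the low ones. Scnn1a, a subunit of the epithelial sodium channel, was at 15.4 and 1.002 CPM against 50.5, 59.8 and 42.8 CPM, and Serpinb1a, an inhibitor of leukocyte elastase, at 8.58 and 1.8 CPM against 19.8, 23.8 and 22.9 CPM. The other lower genes of this set not described above were Cyp2a22, Mmd2, Slc22a26, Slc22a27, Gbp10 and Mup-ps16, of which all but Mmd2 have close relatives in the genome. In normal liver Cyp2a22 was at 2.94, 111 and 146 CPM, Slc22a26 at 1.59, 254 and 260 CPM, and Slc22a27 at 1.26, 40.8 and 41.3 CPM. They were thus also low in wild-type normal 2, a library with Afp at 14.9 CPM. Mmd2 and Gbp10 were lowest there among the normal livers too, but Mup-ps16 was not (73.9, 82.3 and 72.4 CPM).

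Hepatocyte marker genes differed by less than the limit with a single exception. Of 8 defining hepatocyte markers 1, Cps1, was lower, none was higher, and the median was -0.13. Their summed level ran from 149142 and 168331 CPM in the Afp-high tumors to 123739, 118755 and 109706 CPM in the Afp-low tumors. Alb made up most of this sum, at 116648 and 140883 CPM against 95647, 91383 and 80544 CPM. Of the 8 markers, 4 had a positive and 4 a negative log2 difference. Among 25 expressed plasma protein genes 1 was higher and none lower, with a median of 0.17. The higher gene was Ahsg, fetuin A, at 17480.5 and 30969 CPM against 10147, 10801 and 11717 CPM. In the absence of wild-type tumor 1, 4 plasma protein genes were higher and 4 lower, and without wild-type tumor 2 the log2 difference of Ahsg was 0.69.

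None of 25 expressed factors known to act at the Afp gene was called in either direction, and their median was -0.11. Zhx2, the repressor that shuts Afp down after birth in mice, was at 15.1 and 19 CPM against 14.4, 19.7 and 15.5 CPM. Zbtb20, another postnatal repressor of Afp, was at 76.6 and 41.2 CPM against 91.5, 87.5 and 103 CPM, and Zfhx3, a further repressor, at 16.7 and 12.9 CPM against 11.8, 9.52 and 7.45 CPM. Zhx2 overlapped between the sides, Zbtb20 was lower and Zfhx3 higher in both Afp-high tumors, each by less than 1 on the log2 scale. The activator Hnf4a was at 676 and 565 CPM against 857, 591 and 849 CPM, and the forkhead factor Foxa2 at 19.2 and 21.9 CPM against 27.2, 22.4 and 28.8 CPM. Foxa3, another liver forkhead factor, was at 75.6 and 123 CPM against 57.7, 48.9 and 60.7 CPM. Of the nuclear factor I family, Nfia was at 39.1 and 16.1 CPM against 58.5, 43.8 and 52.6 CPM and Nfix at 76.7 and 32.7 CPM against 96.5, 114 and 79.8 CPM. Nfib, the gene targeted in the study, also lay below the Afp-low side, with a log2 difference of -0.70. Nfia, at a log2 difference of -0.995, was just under the limit, and Gata4, at -1.31, overlapped between the sides by only 0.005. Without wild-type tumor 1 there were 2 higher and 5 lower factors, and without wild-type tumor 2 there were 0 and 0. Among wild-type tumors only 3 were lower, without knockout tumor 3 there were 2, and without knockout tumor 2 there was 1. With 0.1 CPM added 1 was lower. None was higher in these last settings.

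Endothelial genes were lower in part, and mainly in wild-type tumor 2. Of 18 expressed endothelial genes 7 were lower and 1 higher, with a median of -1.20. Clec4g, a lectin of sinusoidal endothelium, was at 56.1 and 6.31 CPM against 150.0, 110.1 and 61 CPM, and Vwf, von Willebrand factor, at 23.6 and 7.66 CPM against 50.2, 46.2 and 33.2 CPM. Esm1, a gene of sprouting vessels, was the higher member, at 9.49 and 25.3 CPM against 3.05, 4.13 and 3.84 CPM. The summed level of the list was 734 and 365 CPM in the Afp-high tumors and 1481, 1071 and 747 CPM in the Afp-low tumors, so wild-type tumor 1 and knockout tumor 3 were close. With wild-type tumor 2 left out no endothelial gene was lower and the median was -0.42, with Clec4g at -0.83 and Vwf at -0.82. With wild-type tumor 1 left out there were 11 and the median was -1.91. Kupffer cell and macrophage genes had a median of -0.56, with 1 higher and 1 lower of 19, and genes of T, NK and B cells a median of -0.72, with 3 lower of 16. The lower genes of these lists numbered 9 and 6 with wild-type tumor 1 left out, and 8 and 3 with knockout tumor 2 left out. Skeletal muscle genes, none of 16 called, had a median of -1.17, with summed levels of 175 and 6.86 CPM against 40.9, 2902 and 8.44 CPM, and that median turned to 0.58 without wild-type tumor 2 and to 0.99 without knockout tumor 2. Whether a different share of vessel, immune or muscle cells entered the gene differences was not tested.

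The division was also read within the wild-type genotype, where wild-type tumor 3 was the Afp-low tumor. Both Afp-high tumors were at least 2-fold above it at 392 genes (3.01% of those expressed) and at least 2-fold below it at 407 genes (3.13%). Of the 537 genes higher than all Afp-low tumors, 334 met this limit, and of the 678 lower genes 230 did. Wild-type tumor 3 had already taken part in calling these genes, so these counts are no separate check. Afp, Psat1, Phgdh, Asns and Golm1 in wild-type tumor 3 were at 4.64, 2.29, 1.72, 1.53 and 12.5 CPM, each the lowest of the 5 tumors except Golm1. Ass1 and Hal in this tumor were at 2526 and 292 CPM, above both Afp-high tumors and below both knockout tumors. With 1 Afp-low library, this comparison has no replicate check on that side.

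Beside normal liver, the Afp-low tumors were the nearer side, in part through libraries of equal number. Wild-type normal 3 and knockout normal 3 differed 2-fold from the Afp-low tumors of their number and genotype at only 202 and 173 genes. Wild-type tumor 1 has no normal liver of its number. From wild-type normal 2 the Afp-low tumors differed at 689, 669 and 1555 genes and the Afp-high tumors at 1603 and 3516. Over all expressed genes both Afp-high tumors lay above all 3 normal livers at 1679 genes (12.9%) and below them at 3552 genes (27.3%). These counts have no limit on size and rest on library totals. The TMM factors were 0.95 and 0.90 in the Afp-high tumors and 1.19, 0.98 and 0.96 in normal liver. Scaling by them would raise the Afp-high tumors against wild-type normal 2, and was not done for the comparisons with normal liver. Among the 537 higher genes both lay above all normal livers at 465, and among the 678 lower genes both lay below all normal livers at 539. At the higher genes the median log2 difference from the mean normal liver was 1.24 in wild-type tumor 1 and 1.86 in wild-type tumor 2, but -0.03, 0.15 and 0.06 in the Afp-low tumors. At the lower genes it was -0.72 and -1.99, against 0.13, 0.09 and -0.10. The Afp-low tumors lay within the range of the normal livers at 374 to 448 of the higher genes and at 433 to 492 of the lower genes. The normal livers themselves differed 2-fold or more at 596 genes for the pair numbered 3, and at 1259 and 1721 genes for the pairs with wild-type normal 2.

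**Figure D5:**
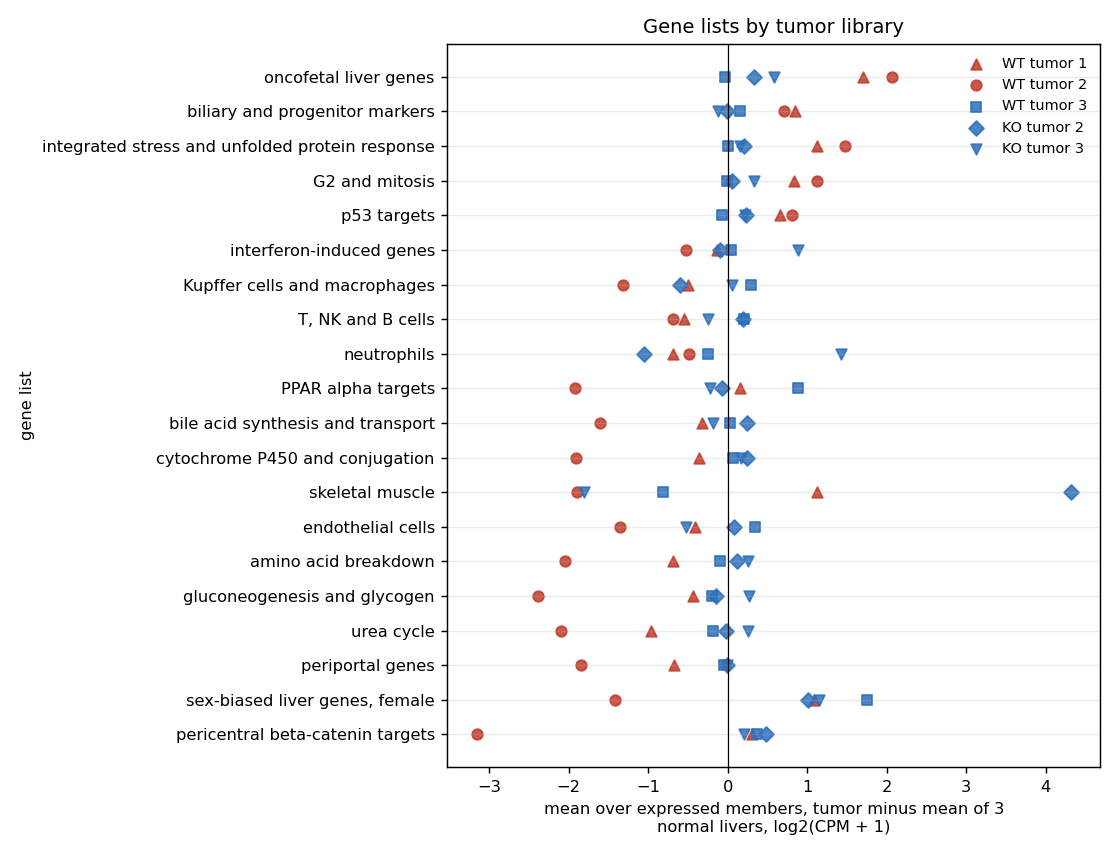
Each row is a gene list with at least 5 expressed members and a median log2 difference of at least 0.5 in size between the sides; each symbol is the mean over its expressed members of 1 tumor minus the mean of the 3 normal livers, in log2(CPM + 1), with Afp-high tumors in red and Afp-low tumors in blue (WT, wild type; KO, Nfib knockout). Wild-type tumor 2 lies farthest to the left for the metabolic lists, wild-type tumor 1 lies with the Afp-low tumors at the pericentral list, and knockout tumor 2 stands apart for skeletal muscle.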

How the data were processed

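Liver RNA of 8 libraries was measured by mRNA sequencing; per the labels' protocols, mirVana was used for extraction, RNA of integrity 7 or above was taken, and the TruSeq stranded kit was used. Raw read counts of 21878 genes, all whole numbers, were deposited, and the deposited FPKM table holds values made by the authors by a formula not given in the sources used here. The submitters' processing notes name Bowtie 0.12.2 and the builds mm8 and mm9, with no role. The counting method and its use of strand are not given in the sources used here. The 4 comparison tables of the authors were not used; they hold 16 columns of values per library, and 2 of these columns fit none of the given samples.

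CPM was computed from the deposited counts by library total with Python 3.11.15, pandas 2.3.3 and numpy 2.4.6, and log2 values with 1 CPM added. Genes at 1 CPM or more in at least 2 tumors were kept. No test was made, since the sides were drawn from Afp in the same libraries. Alternatives were TMM factors (edgeR 4.0.16) and size factors (DESeq2 1.42.0, in R 4.3.3), used for scaling only, no filter, other added CPM values, a 4-fold limit, FPKM, each tumor left out, wild-type tumors only and Afp thresholds of 10 and 1000 CPM. The division and the 48 gene lists were chosen with earlier results of these data known. The genes named were Afp and its family, the 15 per direction with the widest gap at a mean of 5 CPM or more, up to 4 members per list, and all members of the lists of Afp factors and Y-linked genes, 170 in all. A further 22 list members were chosen for their roles after their values were seen. Positions are from GENCODE M21 on GRCm38, where all 170 had 1 locus, and promoter windows are from RefSeq on GRCm38.p6. Listed symbols without a match in the count table (H19, Meg3 and Xist among them) were not analysed here. Some genes are not reported here.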

Additional observations from a re-analysis of the deposited data

How the results depend on the processing

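No paired analysis was possible because the differences come from no test, and the labels do not say whether equal replicate numbers mark 1 animal. The counts of 537 higher and 678 lower genes became 663 and 524 with TMM factors, 651 and 525 with DESeq2 size factors, 560 and 688 without the filter, and 653 and 987 with 0.1 CPM added. They were 305 and 389 with 5 CPM added, 115 and 129 at a 4-fold limit, and 353 and 442 over the 11117 genes expressed by the deposited FPKM. Among wild-type tumors only they were 687 and 1203. With the Afp threshold at 10 CPM, which moves both knockout tumors to the high side, they were 249 and 385, and with it at 1000 CPM, which leaves wild-type tumor 2 alone, 793 and 1708. Leaving out 1 tumor gave 431 to 937 higher and 173 to 1901 lower genes. Of 22 lists with a median of at least 0.5 in size, all 22 kept their sign under TMM, DESeq2 size factors, FPKM, no filter, both added CPM values, the threshold of 1000 CPM and without wild-type tumor 1 or 3. The sign turned for neutrophil genes without knockout tumor 3 (median 0.12) and at the threshold of 10 CPM (0.10), and for interferon-induced genes at 10 CPM (0.049). It turned for skeletal muscle genes without wild-type tumor 2 (0.58), without knockout tumor 2 (0.99), among wild-type tumors only (0.46) and at 10 CPM (1.30). Of the genes of the naming rule, Cps1 (0.062), Gbp3 (0.027) and Rsad2 (0.18) turned sign at 10 CPM. There 48 of the 127 called genes of that rule kept their call, against 88 to 127 in the other settings that were counted for it. At 10 CPM the lower genes of the urea cycle went from 7 to 0 and those of amino acid breakdown from 21 to 0, and the biliary and progenitor list went from 13 higher and 1 lower to 4 and 4. Leaving out 1 tumor gave medians from -1.21 to 0.12 for neutrophil genes and from -2.79 to 0.99 for muscle genes. The cause of these changes was not tested. Depth limits genes near 1 CPM, where added CPM values weigh most.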

Other observations

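Of the immune response genes, 3 of 17 interferon-induced and 7 of 21 acute phase genes were called, against 4.12% higher and 5.21% lower among all expressed genes. All 17 expressed interferon-induced genes had a negative log2 difference (14 under TMM or DESeq2 scaling), and 3 were lower, with a median of -0.51. Rsad2, an antiviral enzyme, was at 8.12 and 6.01 CPM in the Afp-high tumors and 10.9, 13.5 and 35 CPM in the Afp-low tumors, where knockout tumor 3 was the highest. Gbp3, a guanylate-binding protein, was at 14.1 and 6.41 CPM against 18.1, 24.4 and 49.7 CPM, and knockout normal 3 was at 47.3 CPM. The count of lower genes was 6 when wild-type tumor 1 or knockout tumor 2 was left out, and 1 when wild-type tumor 2 or knockout tumor 3 was left out. None of 14 expressed antigen presentation genes was called, and their median was -0.05. Of 21 expressed acute phase genes 5 were lower and 2 higher. The higher genes were Lcn2 and Il1rn, the interleukin 1 receptor antagonist, at 56.1 and 94 CPM against 11.6, 10.4 and 25.2 CPM. Crp, C-reactive protein, was lower at 227 and 75.3 CPM against 357, 279 and 361 CPM. Without wild-type tumor 1 there were 10 lower acute phase genes, and without wild-type tumor 2 there were 2, with Crp at -0.54.

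Lipid and redox genes separated the sides in a few members only. Of 22 expressed cholesterol synthesis genes 2 were higher, Sqle at 188 and 185 CPM against 78.6, 69.4 and 69.6 CPM and Lss at 212 and 161 CPM against 51.7, 68.9 and 68.4 CPM, which encode consecutive enzymes of sterol ring formation. Without wild-type tumor 2 there were 6. Of 21 expressed NRF2 targets 3 were higher and 1 was lower. Srxn1, sulfiredoxin, was at 139 and 225 CPM against 44.8, 87 and 76.9 CPM, and Gstp1, a glutathione transferase raised in rodent liver tumors, at 302 and 635 CPM against 107, 134 and 206 CPM, with 778 CPM in wild-type normal 2. Without wild-type tumor 1, 9 were higher. None of 17 expressed glycolysis isozymes was called, and their median was -0.01. Of 23 expressed PPAR alpha targets 3 were lower, with a median of -0.83, and without wild-type tumors 1 and 2 in turn 13 and 0 were lower. Of 20 expressed matrix and stellate cell genes 2 were higher, Col1a1 at 107 and 172 CPM against 48.3, 72.4 and 20.7 CPM and Timp1 at 3.64 and 14.1 CPM against 0.763, 2.18 and 0.524 CPM. Dcn, decorin, was lower at 112 and 16.2 CPM against 199, 317 and 129 CPM, and no longer called without wild-type tumor 2 (-0.84). Without wild-type tumor 1 or 2, the lower matrix genes numbered 6 or 0, and without knockout tumor 3 they numbered 7.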
